A study of Mus musculus with 2 samples.

Results

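Binding of CTCF, a zinc-finger protein that holds chromatin loops and insulators in place, was examined at 5 clusters of imprinted genes in mouse thymocytes. The clusters are H19/Igf2, Kcnq1ot1, Dlk1/Meg3, Grb10 and Igf2r/Airn. A CTCF region was assigned to a cluster when its midpoint lay inside an mm9 window. Such windows were set by position, but with earlier results of these data known. The windows were chr7:149700000-149900000 (H19/Igf2), chr7:150300000-150600000 (Kcnq1ot1), chr12:110600000-110900000 (Dlk1/Meg3), chr11:11780000-12000000 (Grb10) and chr17:12850000-13050000 (Igf2r/Airn). They held 35 of the 51660 regions listed on the 19 autosomes and the X, with 10, 4, 10, 3 and 8 regions in that order.

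The data came from 1 chromatin immunoprecipitation (ChIP-seq) library made with an anti-CTCF antibody. The cells were CD4+CD8+ (DP, double-positive) thymocytes of C57BL/6 mice aged 4 to 8 weeks, which were Rag1 -/- and carried a rearranged TCRbeta transgene. How many mice gave the cells, and whether they were pooled, is not stated in the labels used here. The labels also give an input DNA library from the same kind of mice, which was not analysed here. The file lists positions alone, as 25-bp windows inside the authors' peaks, without a height or a read count. Depth is therefore unknown, and the width of a region (the length of adjoining windows joined together) is its single value. With 1 library there is no replicate, and no comparison below has a test. Positions cannot show expression, so the labelled cell type could not be checked against marker genes. All mice were of the same inbred strain, and nothing in the file separates the maternal from the paternal chromosome.

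Imprinted genes are expressed from the chromosome of a single parent. Each cluster is governed by an imprinting control element, a stretch of DNA that carries methylation on the chromosome from either the mother or the father (a differentially methylated region, DMR). CTCF is known to bind the unmethylated copy of the H19 control element, the textbook case of an insulator that keeps the enhancers beyond H19 from acting on Igf2, and methylation of its sites prevents that binding. At Kcnq1ot1 and Airn the control element is the promoter of a long non-coding RNA that is known to silence neighbouring genes on the paternal chromosome. Gene and element positions in mm9 used below are rounded bounds from general knowledge. No mm9 annotation or genome was used here, so a region is placed in a stretch of the cluster and not assigned to an exon, an intron or a UTR.

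The sequences shown are RefSeq promoters, from 250 bases before to 50 bases after a gene start in GRCm38.p6, for the start sites of 5 members, shown because the results below turn on whether a CTCF region was listed at or near such starts. Capitals mark CpG dinucleotides, the letters that DNA methylation acts on. Their GRCm38 positions were not set against the mm9 regions. The table held 12 promoters of 7 of the 8 named genes. H19 was not among them.
Airn (chr17:12741061-12741360, + strand): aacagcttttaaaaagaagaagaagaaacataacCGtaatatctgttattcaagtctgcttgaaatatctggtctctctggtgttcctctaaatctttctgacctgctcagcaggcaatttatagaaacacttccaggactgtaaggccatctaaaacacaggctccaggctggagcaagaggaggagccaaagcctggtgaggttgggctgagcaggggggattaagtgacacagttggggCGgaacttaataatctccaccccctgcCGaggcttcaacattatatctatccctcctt
Igf2r (chr17:12769657-12769956, - strand): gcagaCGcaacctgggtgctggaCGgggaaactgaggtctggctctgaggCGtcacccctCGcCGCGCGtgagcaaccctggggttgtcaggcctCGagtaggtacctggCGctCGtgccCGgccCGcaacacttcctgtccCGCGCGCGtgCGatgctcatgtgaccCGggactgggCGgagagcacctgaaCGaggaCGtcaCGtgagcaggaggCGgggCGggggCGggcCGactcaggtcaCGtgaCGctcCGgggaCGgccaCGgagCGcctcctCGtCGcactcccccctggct
Meg3 (chr12:109540746-109541045, + strand): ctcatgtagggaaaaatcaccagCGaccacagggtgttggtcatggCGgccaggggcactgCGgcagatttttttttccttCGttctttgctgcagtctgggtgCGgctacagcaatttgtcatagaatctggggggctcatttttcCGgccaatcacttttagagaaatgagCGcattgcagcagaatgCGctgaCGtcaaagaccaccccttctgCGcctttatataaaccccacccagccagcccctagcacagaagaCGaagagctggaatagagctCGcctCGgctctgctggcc
Kcnq1ot1 (chr7:143296498-143296797, - strand): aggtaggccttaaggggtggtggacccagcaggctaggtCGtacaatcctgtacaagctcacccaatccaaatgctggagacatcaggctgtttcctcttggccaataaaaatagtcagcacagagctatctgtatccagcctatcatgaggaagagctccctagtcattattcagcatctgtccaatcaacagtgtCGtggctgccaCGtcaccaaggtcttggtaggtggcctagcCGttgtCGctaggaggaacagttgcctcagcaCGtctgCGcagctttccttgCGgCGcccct
Grb10 (chr11:12037371-12037670, - strand): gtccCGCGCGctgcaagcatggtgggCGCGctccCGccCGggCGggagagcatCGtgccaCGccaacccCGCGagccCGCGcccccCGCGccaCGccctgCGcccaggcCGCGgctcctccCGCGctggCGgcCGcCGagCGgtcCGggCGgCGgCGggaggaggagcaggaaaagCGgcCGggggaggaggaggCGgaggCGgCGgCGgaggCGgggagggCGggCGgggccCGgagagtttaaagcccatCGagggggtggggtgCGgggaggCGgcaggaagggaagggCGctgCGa

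The 5 promoters differed widely in CpG content. The Grb10 and Igf2r promoters shown had 45 and 34 CpGs, and those of Meg3, Kcnq1ot1 and Airn had 13, 9 and 3. Grb10 and Meg3 each had another promoter, not shown, with 9 CpGs for Grb10 and 1 for Meg3. The median of all 32851 promoters in the table was 7. Each count covers 300 bases around a start site and does not give the CpG content of a whole control element. The letters GGNGGCAG, part of the core CTCF motif, were searched on both strands. They occurred in 2 of the 12 promoters (16.7%), against 12.6% of all promoters of the same length. The matches were GGCGGCAG from base 274 of the Grb10 promoter shown and CTGCCCCC from base 186 of another Igf2 promoter, where the motif lies on the opposite strand. The share was close to that of all promoters, and no match in a window says only that these letters are not there.

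CTCF regions sat at the control elements of H19/Igf2, Grb10 and Igf2r/Airn. None was listed within 5 kb of the control elements of Kcnq1ot1 and Dlk1/Meg3. Per length, the H19/Igf2 window held the most regions of the 5 and Kcnq1ot1 the fewest, with counting intervals that overlapped.

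The H19 control element (the H19 ICR, which lies just upstream of the H19 gene) carried 2 wide CTCF regions next to each other. The first was 1000 bp wide (chr7:149765955-149766954) and the second 775 bp (chr7:149767405-149768179), with 450 bp between them. Together they covered 1775 bp within a span of 2225 bp. Regions of at least 1000 bp made up 1.17% of all regions, and regions of at least 775 bp 4.31%. In the 10 kb around the element, 2 regions were listed, as in 3.81% of all 10-kb tiles of the genome, which held 2 or more. As many bases as at the H19 ICR were covered in 0.232% of those tiles. A measure added after the values were seen compared the pair with all neighbouring regions. Of 51640 neighbouring pairs, 6051 lay at most 450 bp apart, and 15 of these had both regions at least 775 bp wide. Both bounds are the pair's own gap and narrower width, and the pair is itself among the 15. The count therefore describes the pair and is no test of its rarity.

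The other 8 regions of the H19/Igf2 window lay on both sides of the control element and outside the bounds of both genes. On the low-coordinate side, beyond the H19 gene where its tissue enhancers are known to lie, 4 regions were listed, 2 of them among the 3 widest of the window. These were 900 bp (chr7:149718405-149719304) and 850 bp wide (chr7:149723480-149724329), and the others were 450 bp (from 149708205) and 275 bp (from 149738530). The stretch between the control element and Igf2 held a region of 625 bp (chr7:149796330-149796954). It was followed by the longest gap of the window, 60.025 kb (149796955 to 149856979), which took in the Igf2 gene, a fetal growth factor. Of all gaps 15.4% were as long, and such gaps held 72.4% of the length of all chromosomes together. Past the gap, on the side where Ins2 (an insulin gene) lies, 3 regions stood close together, at 425 bp (from 149856980), 625 bp (from 149857905) and 325 bp (from 149861680). No region was listed within the bounds of H19, a non-coding RNA (3 kb), or of Igf2 (20 kb). Of all 20-kb tiles only 23.6% held a region, so an empty stretch of this length is usual.

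Grb10, which encodes an adaptor protein that restrains growth factor signalling, had a region directly on its control element. This region of 550 bp (chr11:11925571-11926120) spanned the rounded centre of CGI2, the CpG island inside the gene that acts as the control element. The other 2 regions of the window lay near each other inside Grb10, at 600 bp (chr11:11873296-11873895) and 575 bp (chr11:11874821-11875395), 0.925 kb apart. No region was listed at the major promoter of Grb10 (11 kb) or on the side towards Ddc (50 kb). Of all 10-kb tiles only 14.2% held a region, and no share was computed for 50 kb. The region at CGI2 was the last before a gap of 265.15 kb (11926121 to 12191270), which ran past the end of the window. Of all gaps between regions 2.85% were as long, and such gaps held 44.6% of the length of all chromosomes together.

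Igf2r/Airn had regions at the promoters of both genes. Airn is a non-coding RNA that runs through Igf2r in the opposite direction, and its promoter inside Igf2r is the control element. A region of 400 bp (chr17:12934102-12934501) lay there, 0.499 kb from the rounded centre. A region of 325 bp (chr17:12962227-12962551) lay at the promoter of Igf2r, which encodes a receptor that removes IGF2. These were narrower than the genome median of 525 bp, with 61.7% and 69.4% of all regions as wide. Of the 3 widest regions of the window, all elsewhere, 2 are given by position, 825 bp inside Igf2r (chr17:12882302-12883126), the widest, and 625 bp in the part of Airn beyond Igf2r (chr17:13003202-13003826). Regions of 50 bp (from 12894052) and 525 bp (from 12906927) were also listed inside Igf2r, and a region of 375 bp (from 12992102) in the part of Airn beyond it. The 8 regions were spread along the window, with a median distance of 26.65 kb between neighbours and a longest gap of 47.075 kb (13003827 to 13050901).

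In the Dlk1/Meg3 window the regions lay outside the germline control element. The IG-DMR, between Dlk1 (a growth-related membrane protein) and the non-coding RNA Meg3, had no region within 5 kb, and the nearest edge was 12.7 kb away, at the 5′ end of Meg3. That end, whose promoter acquires its own methylation difference after fertilization, held 3 regions. They were 25 bp (from 110780211), 25 bp (from 110780411) and 600 bp wide (chr12:110780961-110781560). The 600-bp region was the single region wider than 175 bp on the Meg3 side of the window. A gap of 103.8 kb before these, from the region of 625 bp at chr12:110675786-110676410, took in both Dlk1 and the IG-DMR, and 8.35% of all gaps were as long. Gaps of at least 265.15 kb alone held 44.6% of the length of all chromosomes together, so these held no less. On the low-coordinate side of Dlk1 lay the 625-bp region, a 50-bp region (from 110674561) and regions of 650 bp (chr12:110631886-110632535) and 600 bp (chr12:110639261-110639860). The 650-bp region followed the longest gap that reached into the window, 348.725 kb (110283161 to 110631885). Of all gaps 2.09% were as long, and such gaps held 40.1% of the length of all chromosomes together. Further into Meg3 and beyond it, towards Rtl1 and Rian, the regions were 100 bp (from 110804911), 50 bp (from 110847286) and 175 bp (from 110847361).

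At Kcnq1ot1 no CTCF region was listed over the whole transcript or its promoter. All 4 regions of this window lay together at its low-coordinate side, in the part of Kcnq1 (a potassium channel gene that hosts the RNA) that Kcnq1ot1 is not known to cover. They were 625 bp (chr7:150324580-150325204), 600 bp (chr7:150336930-150337529), 275 bp (from 150338180) and 875 bp wide (chr7:150339305-150340179). The widest, which 2.31% of all regions equalled or passed, was followed by a gap of 309.325 kb (150340180 to 150649504). This gap took in Kcnq1ot1 and its promoter DMR, whose rounded centre was 141 kb from the nearest region. Of all gaps 2.40% were as long, although such gaps made up 42.1% of the length of all chromosomes together.

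**Figure D1:**
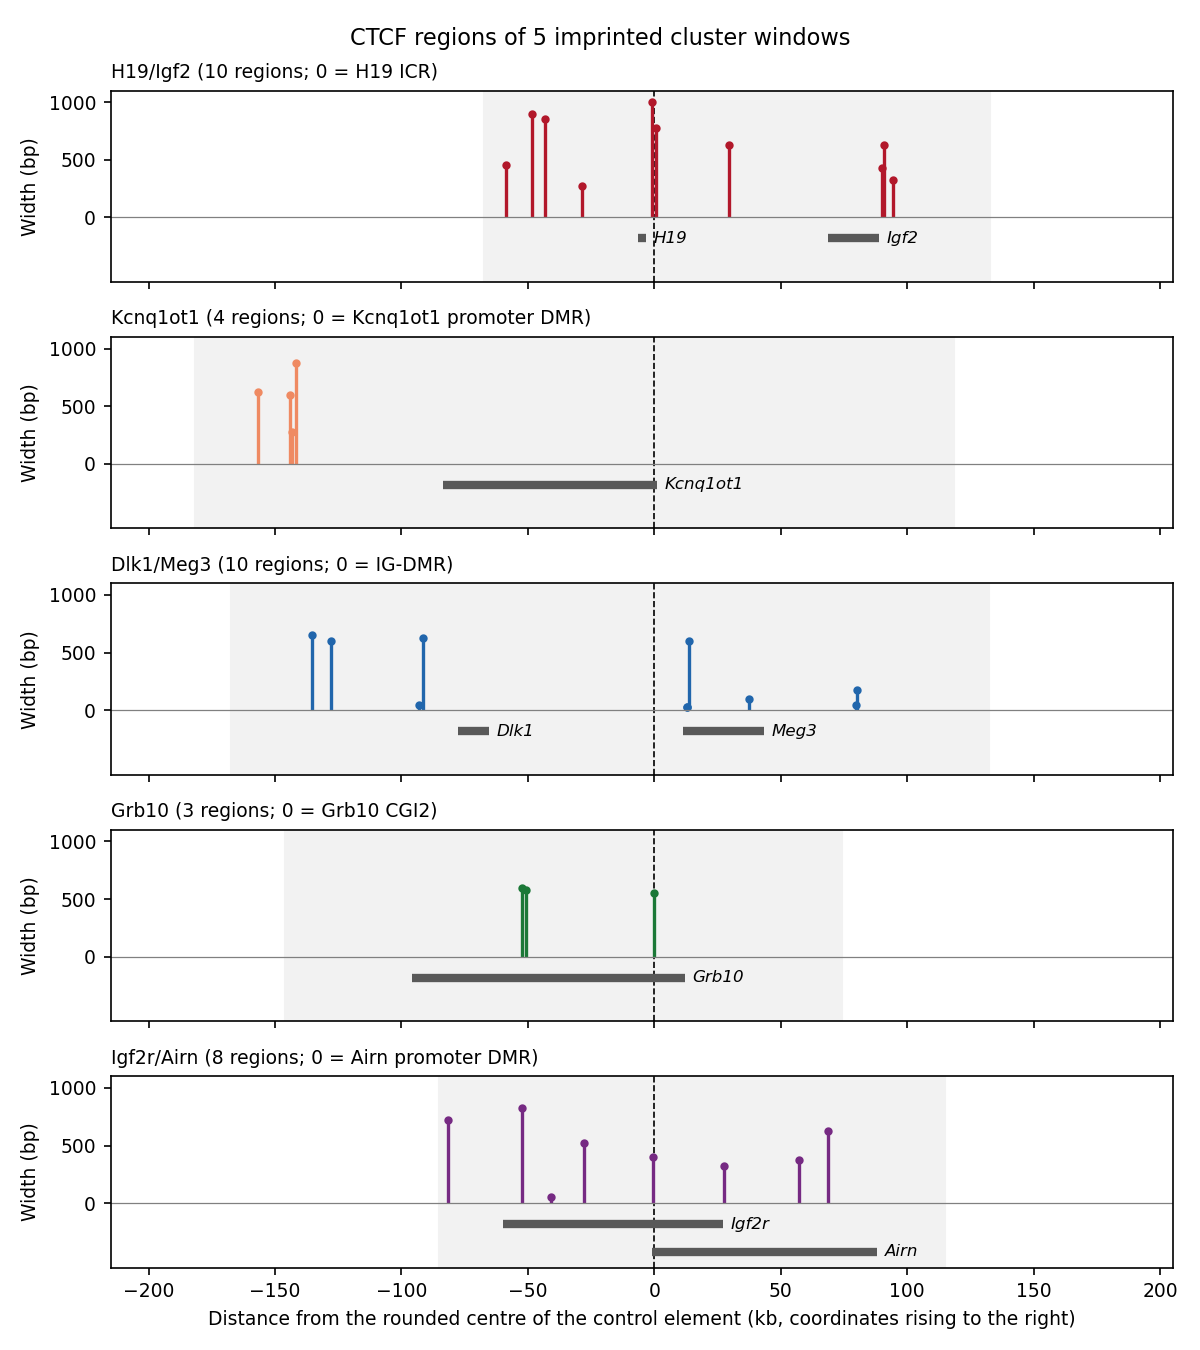
Each row shows 1 cluster window (grey) with the distance in kb from the rounded centre of its control element on the horizontal axis, and the width in bp of each CTCF region as a vertical line, with rounded gene bounds as dark bars beneath. Regions stand within 1 kb of 0 for H19/Igf2 (1000 and 775 bp), Grb10 (550 bp) and Igf2r/Airn (400 bp), while the rows of Kcnq1ot1 and Dlk1/Meg3 are empty there.

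Counted over equal windows of 10 kb, 3 of the 5 control elements had a region (60.0%), against 14.2% of all 10-kb tiles. The same 3 had a region edge within 1 kb of the rounded centre, against 4.22% of the centres of all tiles. Tiles were not matched on genes, CpG content or chromosome, and nothing particular to imprinting is read from the difference. The centres are rounded and may be off, which bears on distances under a few kb.

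A list of 15 other control elements of imprinted genes was read in the same way. Of these, 8 (53.3%) had a region within 5 kb, and 4 had 2 or more. The 5 with the most covered bases were Peg13 (1350 bp), Inpp5f_v2 (725 bp), Plagl1 (625 bp), Zrsr1 (625 bp) and Peg10 (500 bp). Peg13, a non-coding RNA within a brain-imprinted locus, also had adjacent regions, like the H19 ICR, here of 475 bp (chr15:72639355-72639829) and 875 bp (chr15:72640205-72641079). As many bases were covered in 0.720% of 10-kb tiles, against 0.232% for the H19 ICR. The 4 regions at the control elements of the 5 clusters were 400 to 1000 bp wide with a median of 662.5 bp. The 14 at the other elements were 25 to 875 bp wide with a median of 275 bp. Regions of the same element are pooled in these medians. Those of 1000 and 775 bp were both at the H19 ICR, and Mest and Nespas gave 3 each of the 14. No difference between the lists is read from the medians.

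The remaining elements with a region were those left after ranking by covered bases, so narrow regions there follow in part from that ranking. Mest (which encodes a hydrolase) and Nespas (a non-coding RNA of the Gnas locus) had 3 regions each, of 100 to 225 bp at Mest and 25 to 150 bp at Nespas. Gnas exon 1A had 1 of 325 bp. No region was listed within 5 kb of Nap1l5, Peg3, Snrpn, Rasgrf1, Slc38a4, Mcts2 and Nnat. The nearest edge was 484 kb away at Snrpn, the control element of the Prader-Willi and Angelman locus, 189 kb at Peg3 and 51.4 kb at Rasgrf1, and 5.82 and 5.95 kb at Mcts2 and Nnat. In all, 2 of the 5 elements of the clusters and 7 of the 15 others had none, which with no depth in the file cannot be read as an absence of binding.

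**Figure D2:**
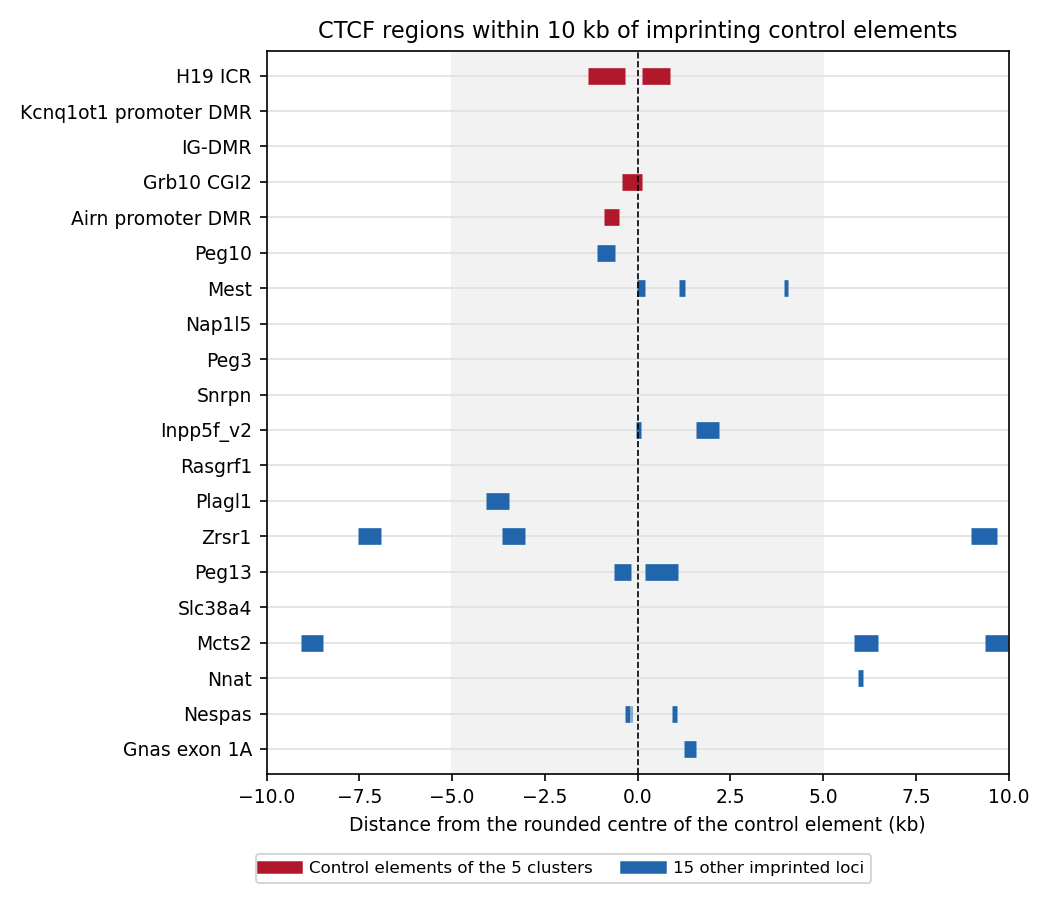
CTCF regions, drawn to scale, within 10 kb of the rounded centres of 20 imprinting control elements, with the distance in kb on the horizontal axis and the 5-kb range in grey. Inside the grey range, the H19 ICR, Peg13 and Nespas show separate regions on the 2 sides of 0. The rows of the Kcnq1ot1 promoter DMR, the IG-DMR, Nap1l5, Peg3, Snrpn, Rasgrf1 and Slc38a4 are empty.

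Per length, the 5 windows held 28.7 regions per Mb (exact 95% Poisson interval 20.0 to 39.9), against 19.6 in the whole library. The library rate was taken over the length up to the last listed position of each chromosome. Sequence where no region could be listed was not taken out, so that rate may be too low, and it lay close to the lower bound of 20.0. This interval and those below cover counting error alone and treat neighbouring regions as independent. H19/Igf2 had 50 per Mb (24.0 to 92.0), Igf2r/Airn 40 (17.3 to 78.8), Dlk1/Meg3 33.3 (16.0 to 61.3), Grb10 13.6 (2.81 to 39.9) and Kcnq1ot1 13.3 (3.63 to 34.1). The intervals of all 5 overlapped each other, which does not decide whether any 2 rates differ, and their order was not tested. Each window held more regions than the median genome tile of its length, which was 2 for tiles of 200 and 220 kb and 3 for tiles of 300 kb. These medians are low in part because 30.9% to 36.6% of the tiles held no region. Grb10 with 3 regions and Kcnq1ot1 with 4 were just above theirs. Against tiles of the same chromosome alone, 4 of the 5 windows exceeded the median, and against tiles that held a region 3 did.

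Many tiles of the genome held as many regions as a cluster. As many as in H19/Igf2 were found in 13.9% of 200-kb tiles, and as many as in Igf2r/Airn in 20.0%. For Dlk1/Meg3 the share was 24.8% of 300-kb tiles and for Kcnq1ot1 48.0%, and for Grb10 it was 46.7% of 220-kb tiles. With regions of at least 625 bp alone the share was 4.86% for H19/Igf2, 17.7% for Igf2r/Airn, and 35.5% for both Dlk1/Meg3 and Kcnq1ot1. Grb10 had no region that wide. Against tiles that held a region the share was 21.9% for H19/Igf2, 31.6% for Igf2r/Airn and 35.9% for Dlk1/Meg3. It was 69.4% for Kcnq1ot1 and 72.1% for Grb10. By covered bases H19/Igf2 was further out, since its 6250 bp were reached in 5.59% of tiles. The 2900 bp of Dlk1/Meg3 were reached in 34.5%, and the 3850 bp of Igf2r/Airn in 16.3%. For the 1725 bp of Grb10 and the 2375 bp of Kcnq1ot1 the shares were 38.3% and 39.0%.

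**Figure D3:**
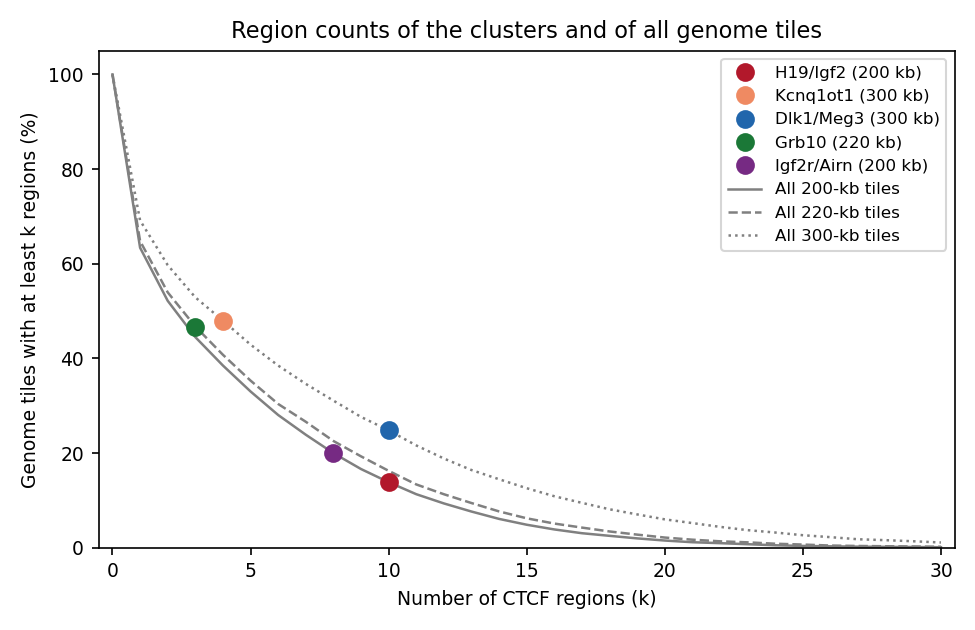
Share of all genome tiles with at least a given number of CTCF regions (vertical axis, in percent) against that number (horizontal axis), with a line for each tile length and a point for each cluster on the line of its own length. Grb10 and Kcnq1ot1 lie near the middle of the distribution, at 46.7% and 48.0%, and H19/Igf2 lies furthest down, at 13.9%.

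Set against the Mb on each side, Kcnq1ot1 was the cluster whose rate was lower than that of its flanks. Its 13.3 regions per Mb (3.63 to 34.1) compared with 58.5 (48.4 to 70.1) in its flanks. These intervals did not overlap, but they treat neighbouring regions as independent. Regions were spread unevenly, since 30.9% of all 300-kb tiles held none and 48.0% held as many as Kcnq1ot1. The intervals may therefore be too narrow and do not decide whether the rates differ, which was not tested. H19/Igf2 had 50 per Mb against 48.5 (39.3 to 59.2) in its flanks. The flanks of these clusters share sequence, since both lie at the end of chromosome 7, and each flank includes the window of the other cluster. Dlk1/Meg3, Grb10 and Igf2r/Airn had 33.3, 13.6 and 40 per Mb, against 29.5, 12.5 and 26 in their flanks, and each cluster's interval included the value of its flanks.

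Among the windows, Dlk1/Meg3 had the median width furthest from that of the library. Its median width was 137.5 bp, because 4 of its 10 regions were at most 75 bp wide and a further 2 were 100 and 175 bp, while the other 4 were 600 to 650 bp. The medians of the other windows were 625 bp in H19/Igf2, 612.5 bp in Kcnq1ot1, 575 bp in Grb10 and 462.5 bp in Igf2r/Airn, against 525 bp in the library. With regions at most 1000 bp apart joined, the median was 1937.5 bp in Kcnq1ot1, 1325 bp in Grb10 and 600 bp in Dlk1/Meg3, and 425 bp in Dlk1/Meg3 with those at most 500 bp apart joined. Over all 35 regions the median was 575 bp, and 20 regions (57.1%) were at least 525 bp wide, against 51.8% of all regions. Regions of at most 75 bp numbered 5 (14.3%), against 14.1% of all regions, and 4 of the 5 were in Dlk1/Meg3. In H19/Igf2, Kcnq1ot1 and Grb10 none was that short, with narrowest regions of 275, 275 and 550 bp.

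**Figure D4:**
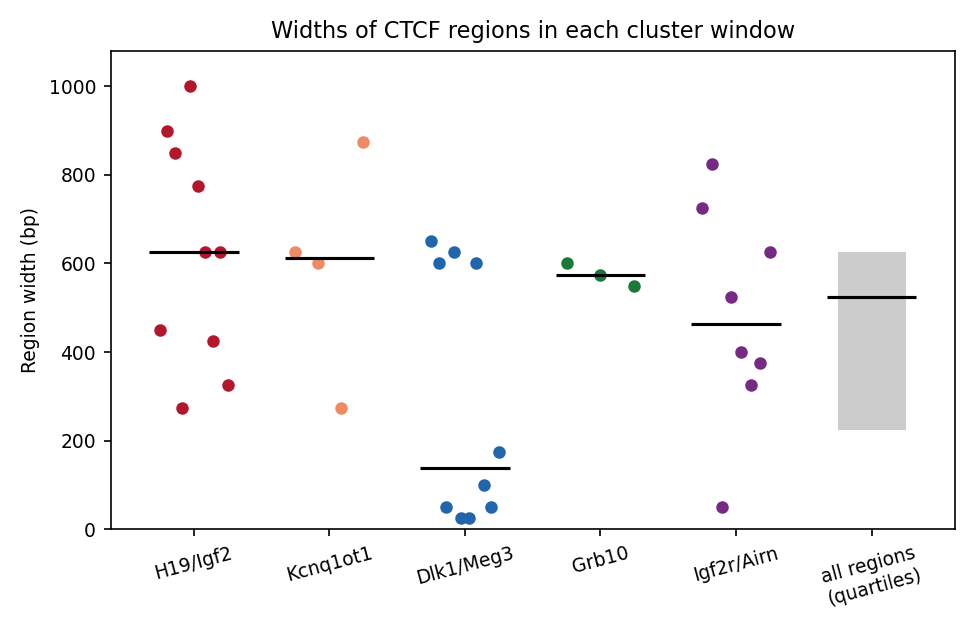
Width in bp of every CTCF region (points, in order of position) in the 5 cluster windows, with the median as a bar, beside the quartiles (box) and median of all 51660 regions. H19/Igf2 holds the widest region (1000 bp), and the Dlk1/Meg3 points split into 600 to 650 bp and 25 to 175 bp.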

How the data were processed

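The submitters' processing notes name Bowtie and the mm9 build. Which version, peak caller and threshold were used, and whether the input entered the calls, is not stated in the labels used here. The deposited positions are 912174 stretches of 25 bp inside the authors' peaks, with no other value. Starts were read as counted from 0 and are printed counted from 1. Adjoining stretches were joined into 51661 regions, and the mitochondrial one was left out. Widths depend on the unknown threshold.

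The members, the windows and the lists of elements and gene bounds were chosen with earlier results of these data known. The rule was to give by position all regions within 5 kb of a control element, the 3 widest regions and the longest gap of each cluster, regions at member promoters, and the 5 other elements with the most covered bases. The remaining positions and elements were added after their values were seen. As an exception to the rule, 1 of the 3 widest regions of the Igf2r/Airn window is not reported here.

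Counts were set against all non-overlapping genome tiles of the same length, up to the last listed position of each chromosome. Tiles where no region could be listed were not taken out. A region counted where its midpoint lay. Joining and tiling were tested on simulated data. Alternatives were other widths, joining distances, window sizes and tiles, and overlap in place of the midpoint. The software was Python 3.11.15 with SciPy 1.17.1, pandas 2.3.3, matplotlib 3.10.9 and NumPy 2.4.6.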

Additional observations from a re-analysis of the deposited data

How the results depend on the processing

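The 5 windows held 27 to 35 regions when regions at most 1000 bp apart were joined, regions of at most 75 bp were left out or overlap replaced the midpoint. They held 20 regions of at least 525 bp (the median width) and 13 of at least 625 bp (the upper quartile). Of the 5 control elements, 2 had a region of at least 525 bp and 1, the H19 ICR, had any of at least 625 bp, against 8.72% and 5.23% of 10-kb tiles, and 4 and 3 of the 15 other elements had such regions. In the other 7 alternatives the control elements with a region numbered 3. With 2.5 or 10 kb to each side of an element the share of tiles was 7.96% and 23.6%. Of the 15 other elements, 6 and 10 then had a region, against 8 with 5 kb. Clusters above the median tile numbered 4 with regions of at least 625 bp, 3 after joining at 1000 bp, and 3 against tiles that held a region. The H19 ICR pair became 1 region when joined at 500 bp. Without regions of at most 75 bp, Dlk1/Meg3 held 6 regions with a median width of 600 bp. These changes follow from the bounds themselves. The element share against tiles of the same chromosome, or against tiles with a region, was not run. No paired analysis was possible because a file of 1 library was analysed. Weak binding and its absence cannot be told apart without counts or heights.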
